A study of Sus scrofa with 20 samples.

Results

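Collagen chains are the subject of this account of porcine adrenal gland expression, and they were taken as all genes whose symbol in the annotation of the array reads COL, a type number, A and a chain number. In all, 38 such genes were measured among 13588 genes with a transcript probe set, by 100 of the 47722 probe sets tested. Where a gene had several probe sets, which applied to 27 of the 38, the brightest of them on average was used. Collagen genes were divided by the type of assembly into 10 fibrillar, 6 basement membrane and 22 other genes.

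Adrenal glands came from 20 pigs of the German Landrace breed, labelled as adult. The 10 high-reactive (HR) animals and the 10 low-reactive (LR) animals differed in their coping behavior in the backtest and in the haplotype linked to it. No separation of capsule, cortex and medulla is described, so that each value is read as that of the mixed gland. Each animal gave total RNA for 1 Porcine Snowball array (Affymetrix), and the values are log2 expression values as deposited. Differences are HR minus LR on the log2 scale, tested by limma, with p-values adjusted by Benjamini-Hochberg across every probe set and a threshold of 0.05. Animals are the replicates.

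Collagens are the main structural proteins of the extracellular matrix. Their chains are translated into the endoplasmic reticulum, hydroxylated, wound into a helix of chains of the same or of different kind, secreted, trimmed at their ends and crosslinked. Fibrillar collagens such as types I, III and V form the tensile fibers of connective tissue, which in the adrenal gland make up the capsule and the septa that run inward from it. Type IV collagen forms the network of basement membranes, which surround the capillaries and the nests of endocrine cells. The remaining types bind to the surface of fibrils, form beaded filaments or hexagonal nets, anchor basement membranes or span the plasma membrane.

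The array of HR2835 stood apart, with an average r of 0.938 to all others, against 0.977 to 0.983 for the remaining 19. Its collagen values differed from those of all other animals in several genes, so that results are given with and without it. Over all 38 genes, the value of HR2835 lay below the 19 other animals in 9 genes and above them in 4, while 25 were within their range. Over all genes measured the shares were 34.2% below and 17.4% above. Marker genes of the cortex lay between 13.19 and 13.49 in HR and between 13.34 and 13.52 in LR as means over 4 measured genes, and those of chromaffin cells between 9.94 and 10.76 in HR and between 9.54 and 10.81 in LR over 5. Cortical and medullary RNA was thus measured in every sample.

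The probe sets of 31 of the 38 collagen genes had a mean above 4.78, the median of all probe sets. These were 9 of 10 fibrillar, 6 of 6 basement membrane and 16 of 22 other genes. Over all genes, each by its brightest probe set, 10176 of 13588 lay above that level. COL5A3, COL6A5, COL9A3, COL20A1 and COL26A1 had no probe set under their symbol and were not analysed here, nor was COL6A1, the partner of COL6A2 and COL6A3. Means ranged from 3.97 for COL10A1, a network collagen known from growth plate cartilage, to 10.84 for COL1A2. As probe sets differ in how well they bind their targets, such values were not compared between genes. Animals differed little in most members. The SD over all 20 animals had a median of 0.21 over the 38 genes and reached 0.51 in COL1A1, 0.48 in COL1A2 and 0.46 in COL21A1, a fibril-associated collagen of low signal. Within groups and without HR2835, the median SD was 0.205 over the 31 brighter collagen genes and 0.218 over the 10176 genes above the same level.

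No collagen gene passed the threshold between HR and LR. With all animals, 0 of 38 were called (smallest adjusted p = 1.0 in limma), as were 0% of all probe sets. At an unadjusted p under 0.05 were 0 of 38, and 3.65% of all probe sets (2.01% with the higher and 1.64% with the lower mean in HR). Of the 13588 genes, each by its brightest probe set, 419 had such a p, 201 with the higher and 218 with the lower mean in HR. The collagen count at such a p was 3 of 38 without HR2965 or without LR2579, 2 without HR2894 and at most 1 with any other animal left out. Of 47722 probe sets, 912 had such a p with the higher and 802 with the lower mean in HR without HR2965. These counts were 969 and 779 without LR2579, and 949 and 751 without HR2894. Without HR2835, 0 of 38 were called (smallest adjusted p = 0.623) and 1 of 38 had an unadjusted p under 0.05. This was so for 7.89% of all probe sets (3.92% with the higher and 3.96% with the lower mean in HR). Among the 13588 genes it was so for 1093, with 555 higher and 538 lower in HR. Of the 38 genes, 15 had the higher and 23 the lower mean in HR, with a median difference of -0.027, where over all genes 53.7% had the lower mean in HR and the median was -0.010. Among the 100 collagen probe sets, 61 had the lower mean in HR with all animals and 50 without HR2835. Standard errors of the differences lay between 0.07 for COL16A1 and 0.20 for COL1A1.

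**Figure D1:**
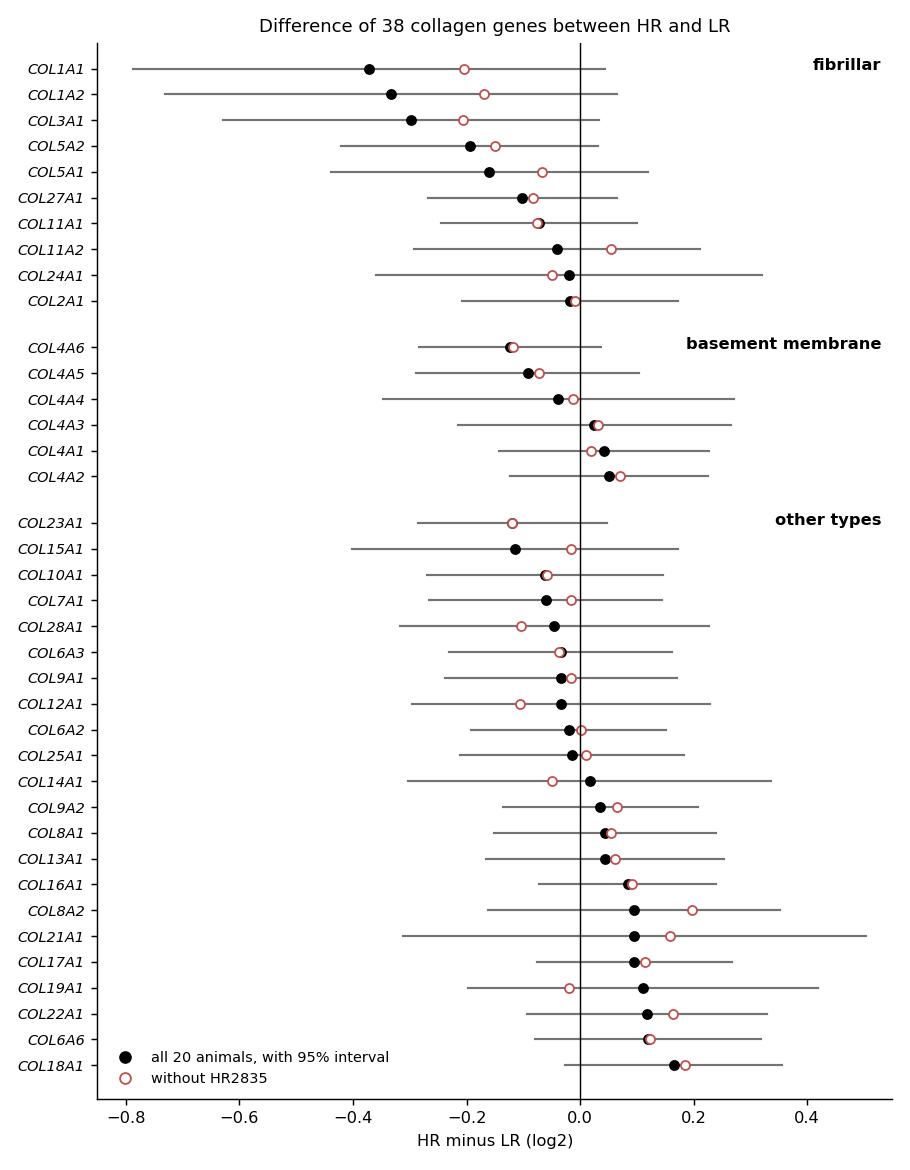
HR minus LR difference on the log2 scale (x axis) for each of 38 collagen genes (y axis), grouped by class. Filled points and lines give the limma estimate from all 20 animals with its 95% interval, and open points the estimate without HR2835. All intervals include 0, and the 10 fibrillar genes lie at or left of -0.017 with all animals.

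By their brightest probe sets, all 10 fibrillar genes had the lower mean in HR. The median difference was -0.13 with a range of -0.37 to -0.02, and none passed the test. Without HR2835, 9 of 10 had the lower mean in HR and the median was -0.08, while 46.8% of all genes had the lower mean in HR. As several of these genes varied together between animals, their directions are not separate observations.

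COL1A1 and COL1A2 encode the chains of type I collagen, the main fiber of the capsule. COL1A1, on chromosome 12 (bases 26379087 to 26397180 of Sscrofa11.1), had its lowest value at 8.54, its median at 10.12 and its highest value at 10.72 in HR, against 9.95, 10.46 and 10.84 in LR. The lowest HR value belonged to HR2835, and 4 HR animals lay below the lowest LR animal, while the other 6 were within the LR range. The difference was -0.37 (standard error 0.20, p = 0.077, adjusted p = 1.0 in limma) and it was -0.21 (p = 0.149, adjusted p = 0.711) when HR2835 was left out. COL1A2, on chromosome 9 (bases 74174484 to 74210407), lay at 9.19, 10.74 and 11.21 in HR and at 10.37, 11.01 and 11.46 in LR (lowest, median and highest). Here HR2835 was the only animal outside the LR range, and the difference was -0.33 (standard error 0.19, p = 0.096, adjusted p = 1.0) with it and -0.17 (p = 0.194, adjusted p = 0.733) without it.

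COL3A1 encodes type III collagen, which forms thin fibers together with type I in distensible tissues. It lay at 8.48, 9.23 and 9.87 in HR and at 8.97, 9.58 and 10.03 in LR, and 3 of 10 HR animals were above the LR median. Its difference of -0.30 (standard error 0.16, p = 0.075, adjusted p = 1.0) had the smallest p of all members and was -0.21 (p = 0.158) without HR2835. With the mean of both its probe sets it was -0.12, as the second, a dim one, differed by 0.05. On chromosome 15, COL3A1 (bases 93556914 to 93595678) is followed by COL5A2 (bases 93611856 to 93981131) with 16177 bases between them.

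COL5A1 and COL5A2 encode chains of type V collagen, which is built into type I fibrils and limits their width. COL5A2 lay at 6.45, 6.85 and 7.23 in HR and at 6.63, 7.06 and 7.396 in LR, with 2 of 10 HR animals above the LR median, and differed by -0.19 (standard error 0.11, p = 0.087, adjusted p = 1.0). Its difference was -0.15 (p = 0.164) without HR2835. COL5A1 lay at 6.77, 7.68 and 8.05 in HR and at 7.44, 7.79 and 8.25 in LR, and its difference of -0.16 (standard error 0.13, p = 0.248) was -0.07 without HR2835, -0.11 without LR2016 and -0.07 with the mean of its probe sets.

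**Figure D2:**
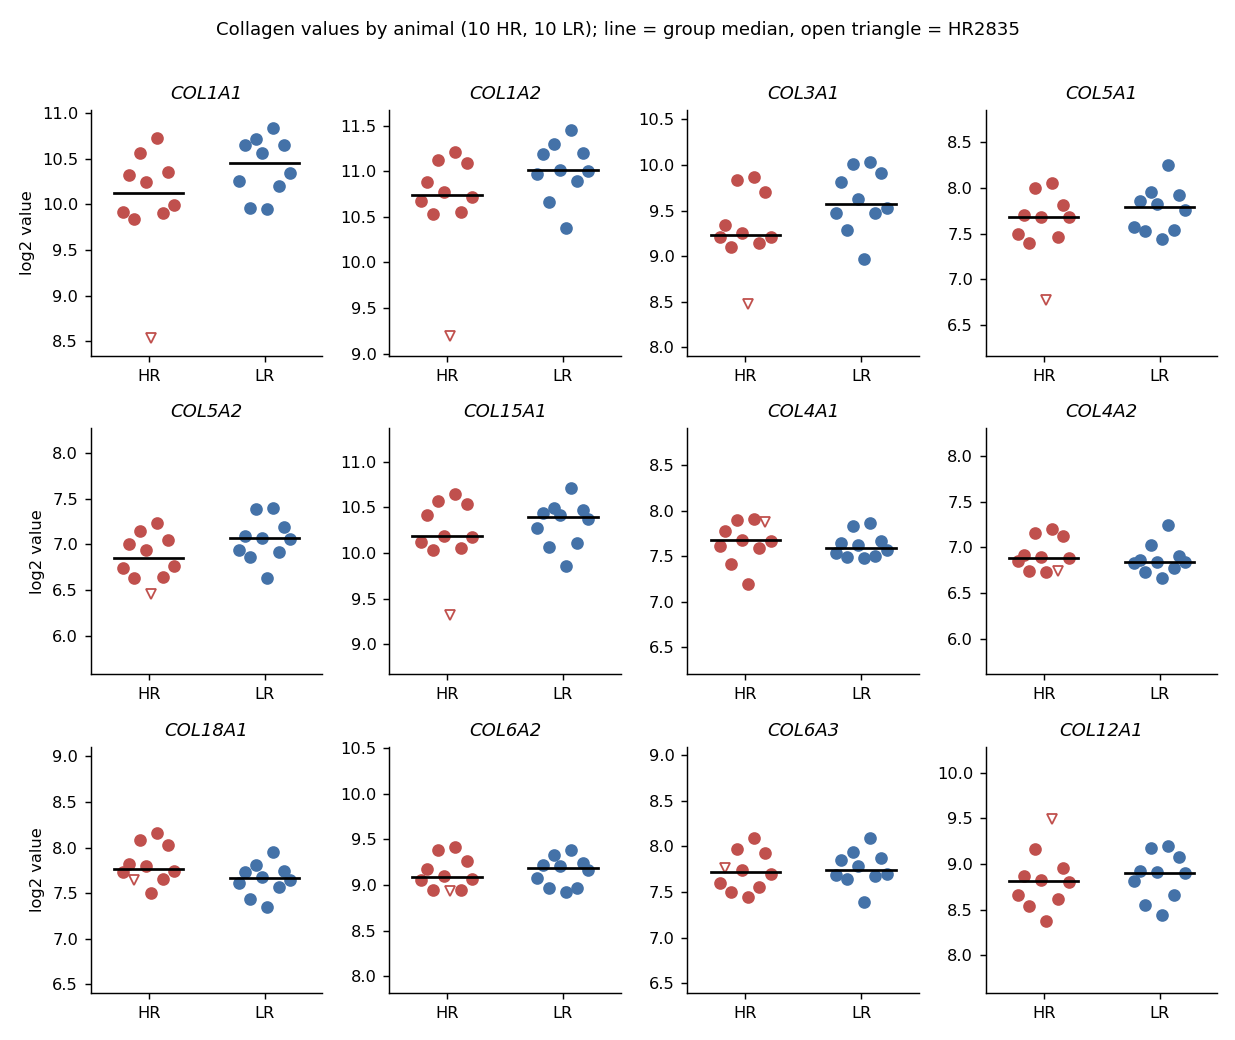
Deposited log2 values (y axis) of 12 collagen genes in single animals, HR left and LR right in each panel. Points are animals, lines are group medians and the open triangle is HR2835, and each panel spans the same range of log2 units. HR2835 lies below all other animals in COL1A1, COL1A2, COL3A1, COL5A1, COL5A2 and COL15A1, and above them in COL12A1.

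The other fibrillar genes lay closer together between the groups. COL2A1, the collagen of cartilage, differed by -0.02, COL11A1 by -0.07 and COL11A2 by -0.04, and the last was 0.05 without HR2835. COL24A1 and COL27A1, fibrillar chains described later than the others, differed by -0.02 and -0.10. In COL27A1, 5 of 10 HR animals lay below the lowest LR animal and 1 above the highest, with p = 0.216. Its dimmer probe sets all had the higher mean in HR, by 0.07, 0.23 (p = 0.053 in limma) and 0.10. COL11A1 was the only fibrillar gene with a mean below the median of all probe sets, at 4.60 ± 0.16 in HR, against 4.67 ± 0.17 in LR (mean ± SD of 10 animals).

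Of the genes of type IV collagen, 3 had the higher and 3 the lower mean in HR, with a median difference of -0.01 and 0 of 6 called. COL4A1 and COL4A2 encode the chains found in nearly all basement membranes, including those of capillaries. COL4A1 lay at 7.20, 7.67 and 7.91 in HR and at 7.48, 7.59 and 7.86 in LR. COL4A2 lay at 6.73, 6.89 and 7.21 in HR and at 6.67, 6.84 and 7.25 in LR. Ranges overlapped over most of their width, and the differences were 0.04 (standard error 0.09, 95% interval -0.14 to 0.23) and 0.05 (standard error 0.08, 95% interval -0.12 to 0.23). HR2835 was within the range of the other animals in all 6 genes.

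COL4A3, COL4A4, COL4A5 and COL4A6 encode chains of more restricted basement membranes, of which COL4A3 to COL4A5 form the network of the glomerulus in the kidney. COL4A3 averaged 5.50 ± 0.24 in HR, against 5.48 ± 0.28 in LR, and COL4A4 6.08 ± 0.35 in HR, against 6.11 ± 0.35 in LR (mean ± SD of 10 animals). COL4A5 averaged 5.28 ± 0.22 in HR, against 5.37 ± 0.18 in LR, and COL4A6 5.14 ± 0.17 in HR, against 5.27 ± 0.13 in LR. COL4A6 had the smallest p of the class (0.125), and 2 of 10 HR animals were above the LR median. Dimmer probe sets of COL4A6 differed by -0.02 and 0.06. The brighter of these correlated with the main one at r = -0.49 in HR without HR2835 and 0.60 in LR. Genes of this class are arranged in pairs on the chromosomes. COL4A1 and COL4A2 overlap by 525 bases on chromosome 11, COL4A4 and COL4A3 by 663 bases on chromosome 15, and COL4A6 and COL4A5 lie 207898 bases apart on chromosome X, as annotated by RefSeq on Sscrofa11.1.

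Of the 22 genes of other types, 12 had the higher and 10 the lower mean in HR, with a median difference of 0.03 and 0 called. COL18A1, whose C-terminal part is released as endostatin and which lies in basement membranes of vessels, had the smallest p among collagens with the higher mean in HR. It lay at 7.50, 7.77 and 8.16 in HR and at 7.35, 7.66 and 7.95 in LR, and 3 HR animals were above the highest LR animal. The difference was 0.16 (standard error 0.09, p = 0.088, adjusted p = 1.0) and 0.18 (p = 0.060, adjusted p = 0.640) without HR2835. Dimmer probe sets of COL18A1 differed by 0.05 and -0.02, and the mean of the probe sets by 0.06. COL15A1, its relative at the border of basement membrane and stroma, lay at 9.33, 10.18 and 10.65 in HR and at 9.86, 10.39 and 10.71 in LR. HR2835 was the only HR animal below the LR range, and the difference was -0.11 with it and -0.02 without it, -0.07 without LR2793 and -0.04 with the mean of the probe sets.

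COL6A2 and COL6A3 encode chains of type VI collagen, which forms beaded filaments around cells. COL6A2 lay at 8.94, 9.09 and 9.41 in HR and at 8.92, 9.19 and 9.38 in LR, and COL6A3 at 7.45, 7.72 and 8.10 in HR and at 7.39, 7.74 and 8.09 in LR. Both ranges nearly coincided, and the differences were -0.02 (95% interval -0.19 to 0.15) and -0.03 (95% interval -0.23 to 0.16). Without HR2835 they were 0.002 and -0.04. COL6A6, a further chain of low signal, differed by 0.12 (standard error 0.10, p = 0.225), at 4.21, 4.48 and 4.805 in HR and 4.05, 4.39 and 4.90 in LR.

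Of the fibril-associated collagens, types XII and XIV attach to the surface of type I fibrils. COL12A1 lay at 8.38, 8.82 and 9.49 in HR and at 8.44, 8.90 and 9.20 in LR, and COL14A1 at 6.57, 7.19 and 7.76 in HR and at 6.60, 7.17 and 7.68 in LR. In both genes the highest value of all animals belonged to HR2835. The differences were -0.03 for COL12A1 and 0.02 for COL14A1, and -0.11 and -0.05 without HR2835. COL22A1, known from tissue junctions, lay at 6.30, 6.74 and 7.06 in HR and at 6.06, 6.62 and 6.87 in LR. Its difference was 0.12 (standard error 0.10, p = 0.258), and 8 of 10 HR animals were above the LR median. It was 0.06 without LR2793 and 0.01 with the mean of its probe sets, of which the dimmest differed by -0.18. COL21A1 had the largest SD of this kind, at 4.09, 4.74 and 5.57 in HR and at 3.68, 4.81 and 5.19 in LR, and differed by 0.10 (standard error 0.20, p = 0.632).

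The members of this class not described singly, COL7A1, COL9A1, COL9A2, COL10A1, COL13A1, COL16A1, COL19A1, COL23A1, COL25A1, COL28A1 and COL8A1, differed by -0.12 (COL23A1, p = 0.150) to 0.11 (COL19A1, p = 0.465, and -0.02 without HR2835).

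COL17A1, the collagen of epithelial hemidesmosomes, lay at 4.41, 4.61 and 4.77 in HR and at 4.16, 4.48 and 4.89 in LR and differed by 0.10 (p = 0.259). COL8A2, a network collagen of vessels and of the cornea, was the gene with an unadjusted p under 0.05 without HR2835, and was named after its values were seen. It lay at 5.12, 6.16 and 6.42 in HR and at 5.71, 5.90 and 6.15 in LR, with 5 of 10 HR animals above the highest LR animal and HR2835 below the lowest. The difference was 0.09 (p = 0.455) with all animals and 0.20 (standard error 0.09, p = 0.032, adjusted p = 0.623) without HR2835. A dimmer probe set of COL8A2 differed by 0.18 (p = 0.135) and 0.23 (p = 0.050) and correlated with the first at r = -0.11 in HR without HR2835 and 0.39 in LR.

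**Figure D3:**
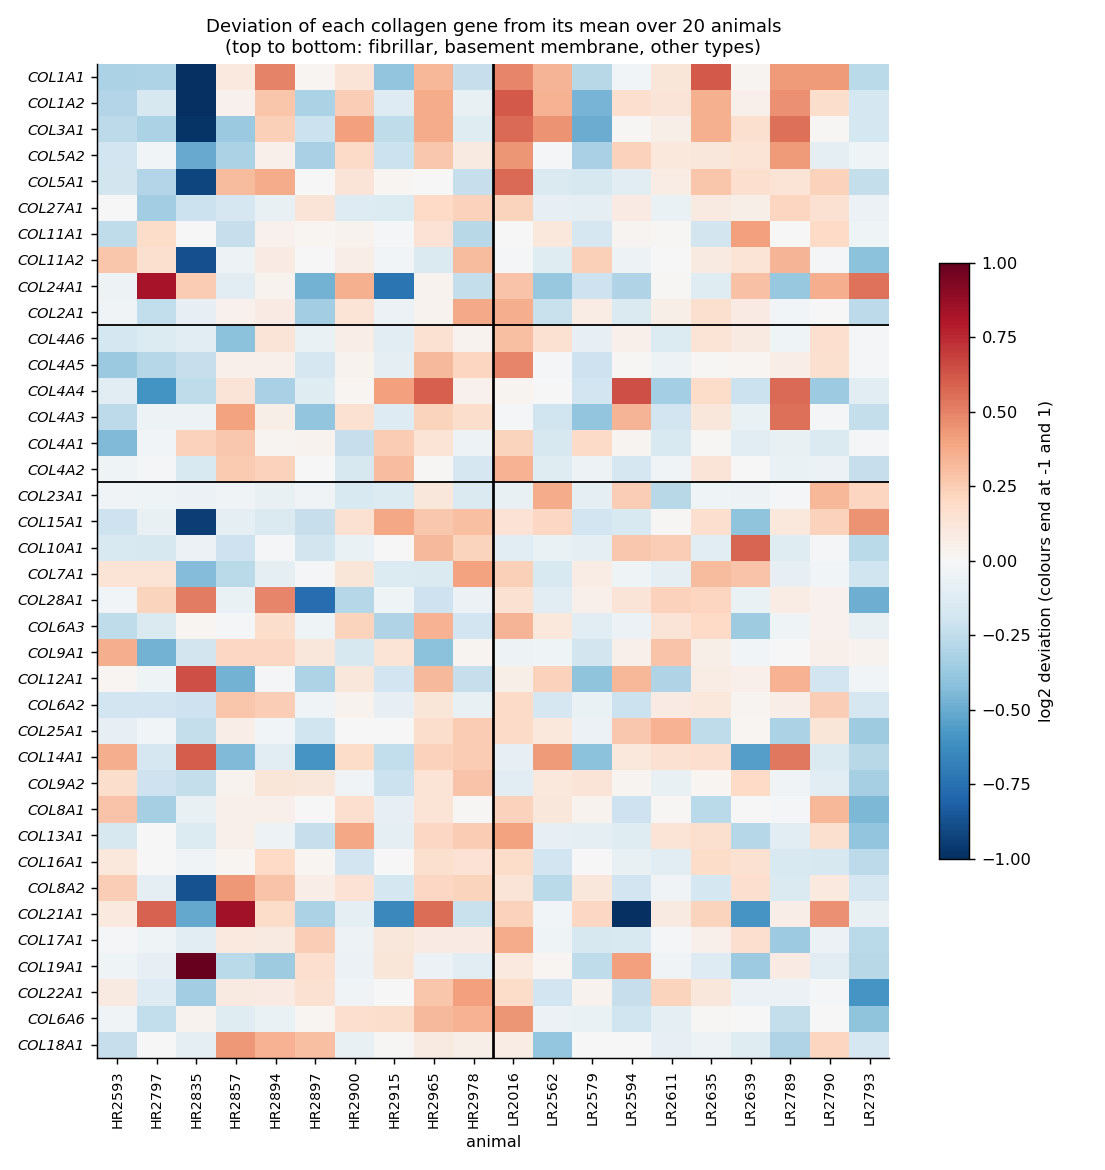
Deviation of each collagen gene (rows, by class) from its own mean over 20 animals (columns, HR left and LR right of the line), in log2 units with colours ending at -1 and 1. HR2835 is the column with the deepest blue in COL1A1, COL1A2 and COL3A1 and the deepest red in COL19A1, and LR2016 is the highest LR animal in 14 of 38 rows.

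HR2835 departed from the other animals in a part of the collagens only. Relative to the mean of the other 19, its value differed by -1.78 in COL1A1, -1.73 in COL1A2, -1.04 in COL3A1 and -0.97 in COL5A1, all outside their range. It was also below all of them in COL5A2, COL11A2, COL15A1, COL8A2 and COL7A1. It was higher than all of them in COL19A1 (1.29), COL12A1 (0.68), COL14A1 (0.64) and COL28A1 (0.54). Of these 4, the first 3 are fibril-associated. By class, it was below the others in 6 of 10 fibrillar, 0 of 6 basement membrane and 3 of 22 other genes. Over all genes measured, HR2835 was below the others in 34.24% and above them in 17.45%, so that its departure was not particular to collagens. Among LR animals, LR2016 had the highest value in 6 of 10 fibrillar genes and LR2579 the lowest in 5.

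Chains of types I and III varied together from animal to animal in both groups. Correlations were computed for 16 pairs of chains, most of which share a molecule, a fibril or a place in the genome. COL15A1 and COL18A1 were added as relatives, and COL1A1 and COL4A1 as a pair across classes. All pairs were tested by permutation within each group. Of the 32 relations, 26 were positive and 13 (6 of HR, 7 of LR) reached the adjusted threshold with Pearson's r. With Spearman's rho 6 passed (2 of HR, 4 of LR), and without HR2835 10 passed (3 of HR, 7 of LR). With each animal of the group left out in turn, 5 of the 13 stayed past the threshold, which were COL1A1 with COL1A2 and COL1A2 with COL3A1 in both groups and COL3A1 with COL5A2 in HR. How many pairs of other genes on these arrays would be positive or pass was not computed, so these counts are not particular to collagens.

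COL1A1 and COL1A2, the chains of the same molecule, gave r = 0.95 in HR (permutation p = 9.6e-04, adjusted p = 0.0061) with rho = 0.83 (permutation p = 0.0050, adjusted p = 0.032). In LR, r was 0.88 (permutation p = 5.6e-04, adjusted p = 0.0060) and rho was 0.92 (permutation p = 5.9e-04, adjusted p = 0.019). Leaving out the 2 animals most distant from the COL1A1 median, r was 0.75 in HR and 0.73 in LR, and without HR2835 it was 0.79 in HR (exact permutation p = 0.015, adjusted p = 0.048). The genes lie on different chromosomes.

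COL1A2 and COL3A1 gave r = 0.89 in HR (permutation p = 8.1e-04, adjusted p = 0.0061) and 0.96 in LR (permutation p = 1.3e-04, adjusted p = 0.0042). Spearman's rho was 0.70 in HR (permutation p = 0.031, adjusted p = 0.091) and 0.88 in LR (permutation p = 0.0017, adjusted p = 0.027). Leaving out the 2 most distant animals, r was 0.78 in HR and 0.90 in LR, and it was 0.84 in HR without HR2835 (exact permutation p = 0.0087, adjusted p = 0.035). COL1A1 and COL3A1 passed in both groups with r = 0.86 in HR (permutation p = 0.0024, adjusted p = 0.011) and 0.83 in LR (permutation p = 0.0036, adjusted p = 0.014), with rho = 0.71 in HR (adjusted p = 0.091) and 0.83 in LR (adjusted p = 0.032). The relation in HR lost its call without HR2835, where r was 0.71 (exact permutation p = 0.042, adjusted p = 0.096), and that in LR without LR2579, where r was 0.76 (exact permutation p = 0.021, adjusted p = 0.061).

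**Figure D4:**
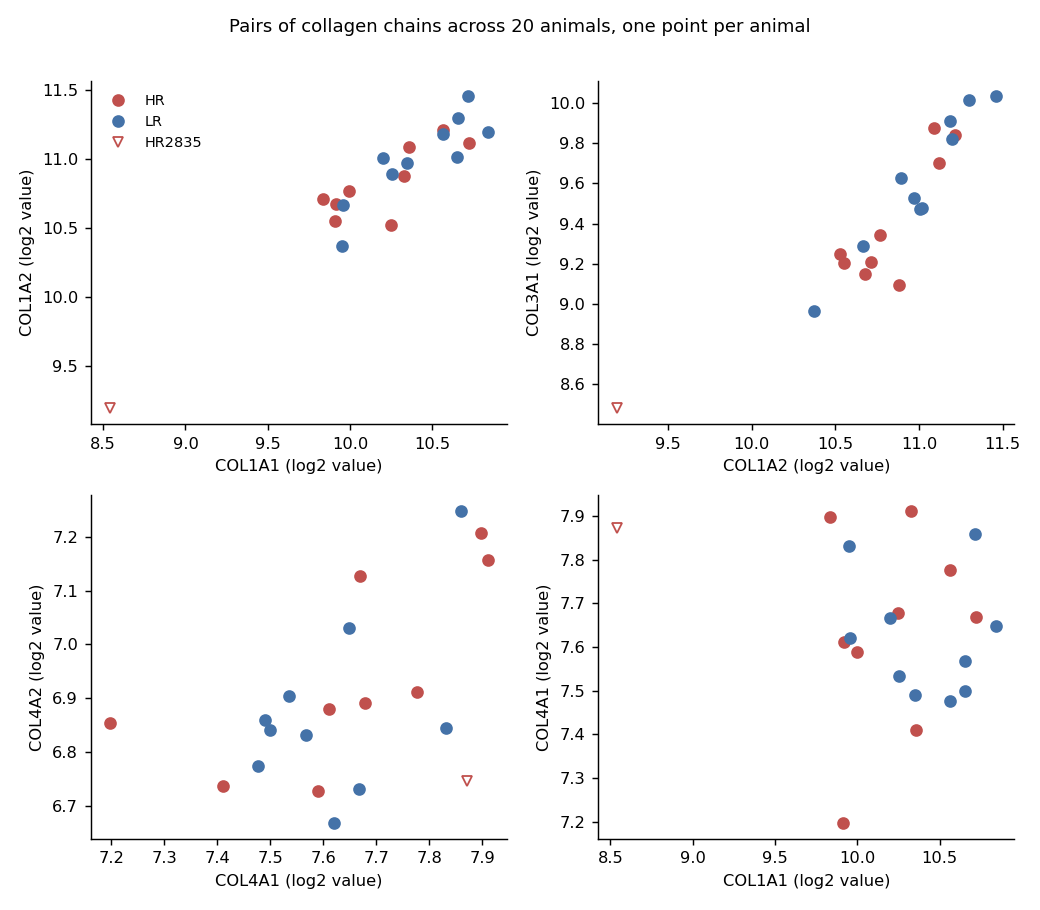
Log2 values of pairs of collagen genes, 1 point per animal, with HR in red, LR in blue and HR2835 as an open triangle. COL1A1 with COL1A2 and COL1A2 with COL3A1 form narrow bands that both groups share, while COL4A1 with COL4A2 and COL1A1 with COL4A1 are scattered more widely.

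COL3A1 and COL5A2, which are neighbors on chromosome 15, gave r = 0.89 in HR (permutation p = 3.6e-04, adjusted p = 0.0058) and 0.80 in LR (permutation p = 0.0065, adjusted p = 0.017), with rho = 0.81 in HR (adjusted p = 0.041) and 0.71 in LR (adjusted p = 0.091). In HR, r was 0.84 without HR2835 (exact permutation p = 0.0056, adjusted p = 0.030). In LR, r was 0.52 without the 2 most distant animals, and the call was lost without LR2016, LR2579 or LR2789 (lowest r = 0.65). COL1A1 and COL5A1 gave r = 0.92 in HR (permutation p = 0.0016, adjusted p = 0.0085) and 0.75 in LR (permutation p = 0.013, adjusted p = 0.033), with rho = 0.67 in HR (adjusted p = 0.094) and 0.83 in LR (adjusted p = 0.032). Without the 2 most distant animals, r was 0.60 in HR and 0.57 in LR. The HR call was lost without HR2835 (r = 0.74, exact permutation p = 0.025, adjusted p = 0.072). The LR call lay near the threshold and was lost on leaving out any LR animal other than LR2562 or LR2639, with r between 0.675 and 0.756 in these 8 cases. The chains of type V itself, COL5A1 and COL5A2, did not pass, at r = 0.42 in HR (permutation p = 0.232, adjusted p = 0.337), -0.08 in HR without HR2835 and 0.58 in LR (permutation p = 0.078, adjusted p = 0.167).

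Over the 10 pairs among COL1A1, COL1A2, COL3A1, COL5A1 and COL5A2, the median r was 0.87 in HR, 0.73 in HR without HR2835 and 0.77 in LR. The median over the 465 pairs of the 31 brighter collagen genes was 0.26, 0.19 and 0.25 in the same order. Over the 36 pairs within the brighter fibrillar genes it was 0.365, 0.234 and 0.471. Over the 15 pairs within type IV it was 0.299, 0.318 and 0.193. The 30 pairs of types I, III and V with type IV genes had a median r of 0.31 in HR, 0.35 in HR without HR2835 and 0.55 in LR. COL1A1 and COL4A1 had r = -0.19 in HR (permutation p = 0.584), 0.21 in HR without HR2835 and -0.17 in LR (permutation p = 0.638).

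Pairs of type IV genes were less uniform. COL4A1 and COL4A2, whose chains form a molecule together, had r = 0.50 in HR (permutation p = 0.137, adjusted p = 0.225) and 0.50 in LR (permutation p = 0.137, adjusted p = 0.225). Without HR2835 the pair in HR had r = 0.70 (exact permutation p = 0.037, adjusted p = 0.090) and rho = 0.87 (exact permutation p = 0.0045, adjusted p = 0.032), while r in LR was -0.04 without the 2 most distant animals. COL4A3 and COL4A4 passed in LR with r = 0.83 (permutation p = 0.0047, adjusted p = 0.015; rho = 0.62, permutation p = 0.061), with r = 0.39 without the 2 most distant animals. This call was lost without LR2594 (r = 0.79) or LR2789 (r = 0.74), and r was 0.74 to 0.89 with any animal left out. In HR this pair had r = 0.33. COL4A5 and COL4A6 passed in LR with r = 0.77 (permutation p = 0.0062, adjusted p = 0.017; rho = 0.65, permutation p = 0.050) and not in HR (r = 0.50), and r in LR was 0.48 without the 2 most distant and the call was lost without LR2016 (r = 0.58) or LR2579 (r = 0.73). Whether these relations differ between HR and LR was not tested.

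Among the other pairs, COL12A1 and COL14A1 gave r = 0.80 in HR (permutation p = 0.0041, adjusted p = 0.015) and 0.57 in LR (permutation p = 0.089, adjusted p = 0.170). The call in HR was lost without HR2835 (r = 0.70, exact permutation p = 0.036, adjusted p = 0.090), and rho was 0.75 in HR (adjusted p = 0.078) and 0.66 in LR (adjusted p = 0.094). COL6A2 and COL6A3 had r = 0.60 in HR (adjusted p = 0.164) and 0.39 in LR (adjusted p = 0.347), and COL8A1 and COL8A2 r = 0.47 in HR and 0.57 in LR (adjusted p = 0.170). COL11A1 and COL11A2, COL9A1 and COL9A2, and COL15A1 and COL18A1 did not pass in either group, with r between -0.39 and 0.38.

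**Figure D5:**
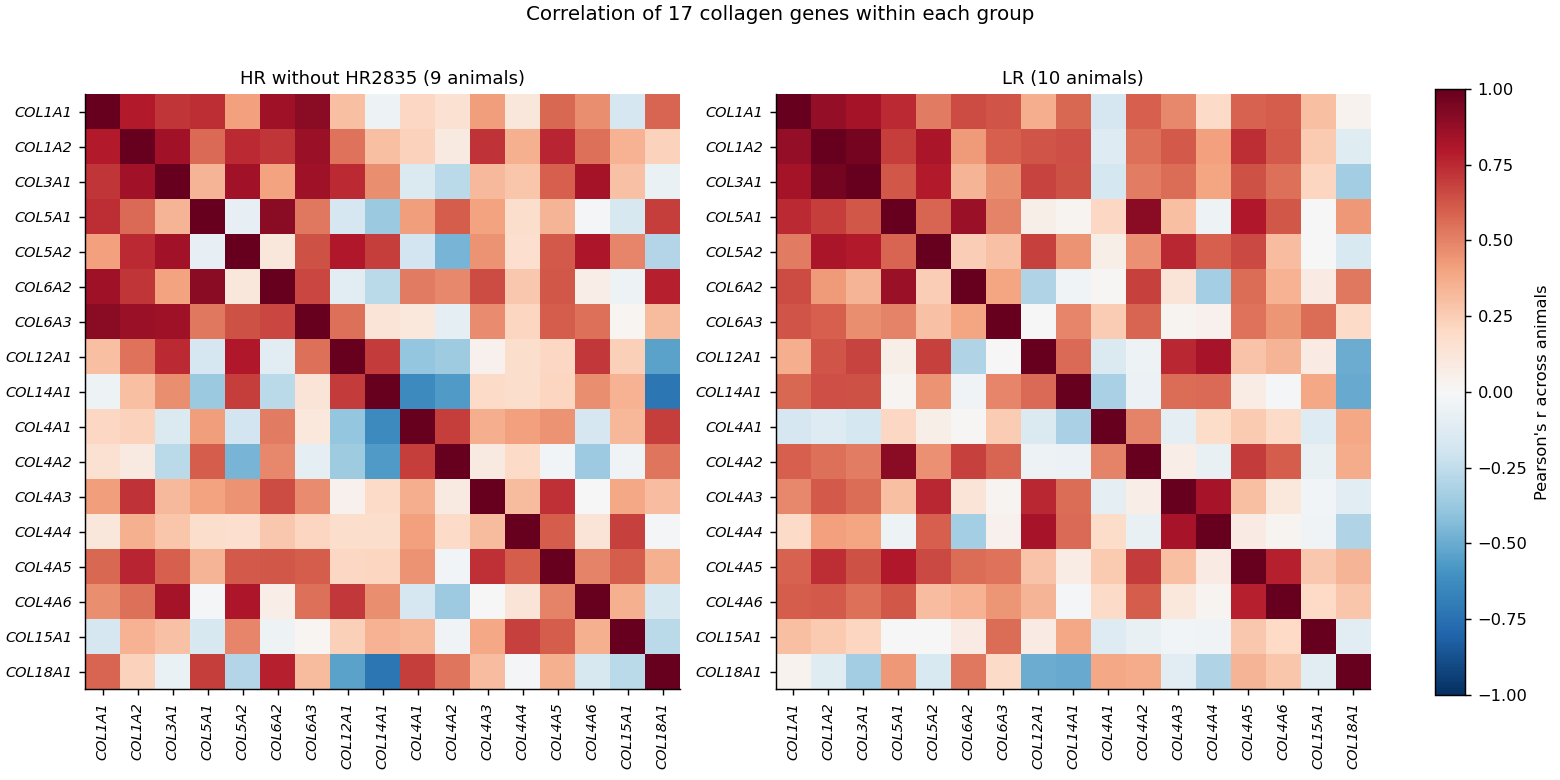
Pearson's r across animals between 17 collagen genes, with HR without HR2835 (9 animals) left and LR (10 animals) right, red for positive and blue for negative r. Genes of types I and III are red against each other in both groups (r of 0.71 or more), and COL4A1 is pale against them.

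Among all 13587 other genes, ranked by the mean of r within HR without HR2835 and within LR, COL1A2 was the most alike to COL1A1, with r = 0.79 in HR and 0.88 in LR. COL3A1 ranked 5, COL6A3 9, COL6A2 10 and COL5A1 11. The next collagen was COL4A5 at rank 120, and COL5A2 ranked lower than that. The 5 genes outside the family with the highest mean r were SMARCD1 (r = 0.83 in HR, 0.82 in LR), ACTG2 (0.84, 0.81), NCLN (0.83, 0.79), PRRT4 (0.93, 0.61) and SBSN (0.70, 0.84). For COL4A1 the highest ranks belonged to GPR37, PPM1M, PRKD2, MN1 and KIF1C, with mean r from 0.76 to 0.84, and COL4A2 ranked 151 (r = 0.69 in HR, 0.50 in LR). These ranks are descriptions over 9 and 10 animals of genes that share the arrays.

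Markers of connective tissue cells were set beside the fibrillar collagens. Of the capsule and fibroblast list, which holds no collagen, 9 of 10 genes were measured, with group means of 6.43 or more (MFAP5 lowest, at 4.47 in HR2835). Of these, 8 of 9 had the lower mean in HR with all animals and 7 of 9 without HR2835, where 53.7% and 46.8% of all genes did. LUM (-0.66, unadjusted p = 0.012 in limma) and DCN (-0.35, p = 0.032) had the smallest p of the list, and MFAP5 the next (p = 0.112). None was called after adjustment. Without HR2835, FBLN1 differed by -0.01 and NR2F2 by 0.02. POSTN had the higher mean in HR, by 0.29 with all animals. In HR2835, FBN1 (9.36) and PDGFRA (8.32) lay above their HR means (7.75 and 7.65), and the other measured genes of the list below. The mean of the list lay between 7.72 and 8.54 in HR (mean 8.21 ± 0.24) and between 8.15 and 8.97 in LR (8.41 ± 0.24, SD, n = 10 each). Its lowest value was in HR2835, and it differed by -0.21, or -0.15 without HR2835. With this mean as a covariate, COL1A1 differed by -0.16 (standard error 0.19) and COL1A2 by -0.08 (0.17) between HR and LR. COL3A1 then differed by -0.08 (0.14) and COL5A2 by -0.03 (0.09). With the mean of the chromaffin markers as covariate instead, these genes differed by -0.38, -0.34, -0.32 and -0.21. Leaving out HR2835 alone brought the fibrillar median from -0.13 to -0.08, and to -0.06 with the capsule and fibroblast mean as covariate as well. In mixed tissue, fewer cells of a type and less RNA per cell cannot be told apart. Endothelial markers (6 of 6 measured) lay between 7.28 and 8.18 in HR and between 7.58 and 8.06 in LR and smooth muscle markers (5 of 6) between 7.44 and 8.56 in HR and between 8.10 and 8.44 in LR, with differences of -0.002 and -0.02 (0.06 for each without HR2835). All 4 cortex and all 3 Schwann cell markers measured also had the lower mean in HR with all animals. The lists for other cells differed by -0.10 (adipocyte) to 0.35 (red blood cell, 2 genes measured), with 0.10 for chromaffin cells and -0.04 for the cortex. The part of these cells in the collagen values was not tested further.

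Genes that process and bind collagen were compared between the groups as well. Of 26 measured genes that hydroxylate, fold, export, trim or crosslink the chains, 9 had the higher and 17 the lower mean in HR, with a median difference of -0.04, and 0 were called, while 2 had an unadjusted p under 0.05. Over all features, 53.7% of genes had the lower mean in HR, and 3.65% of probe sets and 419 of 13588 genes had such a p. Without HR2835, 13 had the higher and 13 the lower mean in HR, where 46.8% of all genes had the lower mean. At an unadjusted p under 0.05 there were 3, against 7.89% of probe sets and 1093 of 13588 genes. SEC23A of the export coat was among them (-0.29, p = 0.013). LOX, the lysyl oxidase that starts the crosslinks between chains, lay at 4.27, 4.93 and 5.22 in HR and at 4.74, 5.34 and 5.63 in LR. Its ranges overlapped, and the difference was -0.42 (standard error 0.12, p = 0.0025, adjusted p = 1.0 in limma). CRTAP, a part of a complex that hydroxylates prolines of type I chains, lay at 6.23, 6.49 and 6.79 in HR and at 6.57, 6.77 and 7.09 in LR and differed by -0.30 (standard error 0.08, p = 0.0017, adjusted p = 1.0). Values of both genes were little affected by HR2835, at -0.42 and -0.27 without it. BMP1, which removes the C-terminal propeptide, differed by -0.28 (p = 0.096). Among those with the higher mean in HR, MIA3, which helps load collagen into transport carriers, differed by 0.17 (p = 0.270) with all animals and by 0.04 without HR2835, which had its highest value. ADAMTS3, which removes the N-terminal propeptide, differed by 0.08 and by 0.03 without HR2835, and P4HA3, a prolyl hydroxylase subunit, by 0.05 and 0.07.

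Of the 9 measured collagen receptors, 3 had the higher and 6 the lower mean in HR, and 0 had an unadjusted p under 0.05, beside the same 53.7% and 3.65% over all features. ITGA11, an integrin subunit for fibrillar collagen, differed by -0.23 (p = 0.101), ITGB1, the common beta subunit, by -0.16 (p = 0.356) and ITGA10 by -0.07. GP6, ITGA1 and ITGA2 had the higher mean in HR by 0.02, 0.03 and 0.03. Without HR2835, ITGA1 and ITGA2 differed by -0.15 and -0.15, and ITGB1 by -0.29 (p = 0.034), the only receptor with such a p where 7.89% of all probe sets had one, and 0 of 9 were called.

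Several probe sets of a gene did not always follow each other. In COL1A1, a probe set with a mean of 8.43 correlated with the main one at r = 0.97 in HR without HR2835 and 0.91 in LR and differed by -0.39 (p = 0.071) between HR and LR, while a brighter probe set with r = 0.79 and 0.62 differed by -0.19. Dimmer probe sets of COL1A1, with means of 5.41 and 4.20, differed by -0.05 and 0.001. HR2835 differed from the mean of the others by 0.20 in the first of these and -0.38 in the second, against -1.78 in the main one. The mean of all probe sets of COL1A1 differed by -0.20. The main and the second probe set of COL12A1 correlated at 0.93 in HR without HR2835 and 0.98 in LR, and those of COL15A1 at 0.88 and 0.92. The dimmest probe set of COL12A1 (mean 4.64), in which HR2835 lay 1.44 above the mean of the others, differed by -0.22 with all animals and by -0.39 (p = 0.014, not called after adjustment in limma) without HR2835. The 10 probe sets of COL6A3 differed by -0.28 to 0.13 between HR and LR, and the lowest r with the main one was -0.56 in LR, for the dimmest.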

How the data were processed

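Porcine Snowball arrays (Affymetrix) measured adrenal RNA of 10 HR and 10 LR pigs, 1 array for each. The authors processed the scans with GCOS 1.1.1, normalized them by RMA and deposited log2 values per probe set, which were used unchanged. RMA scales arrays to the same distribution, so that a shift common to most genes is removed. From 47845 probe sets, 123 controls were left out. No filter on dim probe sets was applied, and columns not used numbered 0. Animals were assigned to HR or LR by their names in the labels. Batch, litter and sex are not given in the sources used here.

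Collagen genes were taken by symbol, with the transcript probe set of highest mean. All 38 were matched by symbol to RefSeq on Sscrofa11.1, and 5 of 43 collagen genes listed there were not measured under their symbol. The comparison of HR with LR used limma 3.58.1 under R 4.3.3 (lmFit and eBayes without covariates) on 47722 probe sets, with Benjamini-Hochberg adjustment and a threshold of 0.05, after a test of the fit on simulated data. Of 21 pairs of chains 16 were measured, and Pearson's r and Spearman's rho were tested two-sided within each group with 100000 permutations, or exactly with 9 animals (Python 3.11.15), with adjustment over 32 relations. Replicates are different animals.

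Members, lists and tests were chosen with earlier results of these data known. Values were given for a set of chains chosen by function, the 4 members of smallest p on either side and the 3 of largest SD over all animals, with the 3 of smallest p on either side in the lists of processing genes and receptors. Alternatives were the mean of all probe sets, probe sets above the median level, quantile-normalized or median-centred values, eBayes with trend and robust estimation, array weights, pooled residuals and rank correlation, marker scores as covariates and leaving out each animal. A Y-linked score, combinations with HR2835 left out, and leaving out animals other than HR2835 for the correlations were added after the data were seen. Precision is limited by the number of arrays.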

Additional observations from a re-analysis of the deposited data

Results flagged for a closer look

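Values of single animals were examined in 76 combinations of gene and group, and in 12 of them the highest or lowest animal was separated from its neighbor by a gap larger than Dixon's limit. By chance 1 in 20 groups would be marked, which is 3.8 of 76, if no array departed as a whole. That condition was not met by HR2835, which over all genes measured lay below all other animals in 34.24% and above them in 17.45%. Marks of the same array are not separate observations, so that the 12 cannot be judged against 3.8. Whether collagens had more marks than other genes was not tested. HR2835 accounted for 7 of the 12, as the lowest HR animal in COL11A2 (4.848), COL15A1 (9.326), COL1A1 (8.539), COL1A2 (9.194), COL5A1 (6.769) and COL8A2 (5.115) and as the highest in COL19A1 (6.595). The nearest HR animal lay at 5.58, 10.04, 9.84, 10.53, 7.39 and 5.81 in the first 6 and at 5.54 in COL19A1. The part of the array in these values was not tested.

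Animals other than HR2835 accounted for 5 marks. HR2965 was the highest HR animal in COL23A1 (4.602, nearest 4.46). LR2016 was the highest LR animal in COL4A5 (5.813, nearest 5.48) and COL6A6 (4.9, nearest 4.47), LR2611 the highest in COL9A1 (5.144, nearest 4.92) and LR2793 the lowest in COL28A1 (3.596, nearest 3.98).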

How the results depend on the processing

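No collagen gene was called under any alternative run, and none of 26 processing genes with quantile normalization, median centring or any animal left out, the alternatives run for them. The count of collagen genes at an unadjusted p under 0.05 was 1 with quantile normalization, 0 to 3 with an animal left out and 0 in the main comparison. With quantile normalization, 893 of 47722 probe sets had such a p with the higher and 783 with the lower mean in HR. The fibrillar median of -0.13 was -0.070 with the mean of all probe sets, -0.082 with array weights, -0.080 without HR2835, -0.065 with the capsule and fibroblast score as a covariate and -0.060 with that score and HR2835 left out. The median over all collagens of -0.027 was 0.011 with that score. Of 32 relations between chains, 13 passed by Pearson's r, 6 by Spearman's rho and 5 by rho without HR2835. By Pearson's r, 11 passed with the mean of all probe sets (6 of HR, 5 of LR) and 9 to 14 when an animal was left out. Differences of 17 named genes kept their direction in 323 of 340 values with an animal left out. Directions turned near 0 with quantile normalization (COL6A2 0.010, COL12A1 0.0027), the mean of all probe sets (COL21A1 -0.014), array weights (COL14A1 -0.019), the capsule and fibroblast score (COL6A2 0.0023, COL12A1 0.014, COL15A1 0.0086) and the Y-linked score (COL12A1 0.011). With an animal left out, differences lay between -0.051 and 0.0062 for COL6A2, -0.050 and 0.083 for COL14A1, -0.11 and 0.017 for COL12A1, -0.076 and 0.0017 for COL6A3, and -0.016 and 0.17 for COL21A1. No paired analysis was possible because the animal numbers are not shared between HR and LR.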

Other observations

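All 465 pairs of the 31 brighter collagen genes were ranked by their mean r within HR without HR2835 and within LR. The pairs named here lie outside the list of chains and were picked by rank, so that no test was made. COL5A1 of type V and COL6A2 of type VI ranked 2, with r = 0.91 in HR and 0.86 in LR, against -0.08 in HR and 0.58 in LR for COL5A1 with COL5A2 of its own molecule. COL1A1 and COL6A3 ranked 7 (r = 0.91 in HR, 0.63 in LR), and with HR2835 included r in HR was 0.39. COL4A2 ranked 8 with COL5A1 (r = 0.60 in HR, 0.90 in LR).

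At the other end of this ranking, COL14A1 and COL18A1 had the most negative mean r, with r = -0.72 in HR and -0.50 in LR. Next to it came COL24A1 and COL4A4, with r = -0.57 in HR and -0.61 in LR. COL19A1 and COL8A2 had r = -0.70 in HR and -0.42 in LR, and -0.94 in HR with HR2835 included. COL12A1 and COL18A1 had r = -0.53 in HR and -0.49 in LR.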
